A study of Mus musculus with 11 samples.

Results

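The 9 genes described here encode Sox transcription factors of the astrocyte and oligodendrocyte lineages, taken as a list by family and lineage, with earlier results of these data known: Sox1, Sox2, Sox3, Sox5, Sox6, Sox8, Sox9, Sox10 and Sox21. They are 9 of the 24421 genes in the expression tables, and 8 of them were among the 13875 genes that passed a filter on low counts, the exception being Sox3. RNA was sequenced from eGFP-positive cells sorted by FACS from 16-week-old Aldh1l1-eGFP mice of both sexes on the C57BL/6 strain, in 3 samples of the olfactory bulb (OB), 3 of the hippocampus (HC), 2 of the cortex (CX) and 3 of the brainstem (BS). All 4 groups carry the same transgene, in which promoter sequence of Aldh1l1, a folate enzyme gene of astrocytes, drives eGFP, so that the sort takes any cell in which that promoter is active. The labels do not say which samples came from which animals, and p-values therefore measure the spread between these samples, which may be in part technical.

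Sox proteins bind DNA through a shared HMG domain and are sorted into groups by the sequence of that domain. Sox1, Sox2 and Sox3 form the SoxB1 group, which keeps neural progenitors undifferentiated, and Sox21 belongs to SoxB2, whose members act mainly as repressors and counter SoxB1. Sox5 and Sox6 are SoxD proteins, which lack a transactivation domain and modulate the activity of other Sox factors. Sox8, Sox9 and Sox10 are SoxE proteins: Sox9 acts in the switch from neurogenesis to gliogenesis and remains in astrocytes, Sox10 drives myelin genes in oligodendrocytes and marks Schwann cells and olfactory ensheathing glia, and Sox8 overlaps with both.

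Each value below is a normalised read count, the number of reads on a gene divided by 1 size factor per sample. Samples held between 2830746 and 14151670 reads on genes, and 1 read stood for a value between 0.367 and 2.10, depending on the depth. The 10 astrocyte markers examined were detected in all 11 samples, with summed values of 234657 to 280798 (OB), 274210 to 466864 (HC), 561643 to 636528 (CX) and 97893 to 288246 (BS). Markers of other cells were detected too, and their sums are given beside the results that move with them. In bulk RNA, fewer cells of a type and less RNA per cell cannot be told apart.

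When values were divided by exon length, Sox9 had the highest level of the 9 genes in every region. Its mean ± SD was 644 ± 10.8 normalised counts per kb of exon for the CX (n = 2), 494 ± 137 for the HC (n = 3), 369 ± 80.0 for the OB (n = 3) and 368 ± 64.8 for the BS (n = 3). Sox2 had rank 2 in every region, from 185 ± 71.7 per kb in the BS (SD, n = 3) to 422 ± 68.8 in the CX (SD, n = 2). Below these, the order depended on the region. Sox8 had rank 3 in the OB at 208 ± 31.4 per kb (SD, n = 3) and rank 5 in the HC at 93.0 ± 21.0 (SD, n = 3). Sox21 had rank 3 in the HC and the CX, and rank 7 in the BS at 28.4 ± 10.7 per kb (SD, n = 3). The SoxD genes lay between 38.3 and 75.5 per kb as region means, where the exon length joins the exons of all annotated isoforms and so exceeds that of a single transcript. Sox10 lay between 14.6 and 64.2 per kb, and Sox3 was last in every region. Neighbours in this order often lay within each other's spread: in the HC the means of Sox21, Sox1 and Sox8 were 114 ± 31.6, 112 ± 22.3 and 93.0 ± 21.0 per kb (SD, n = 3).

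**Figure D1:**
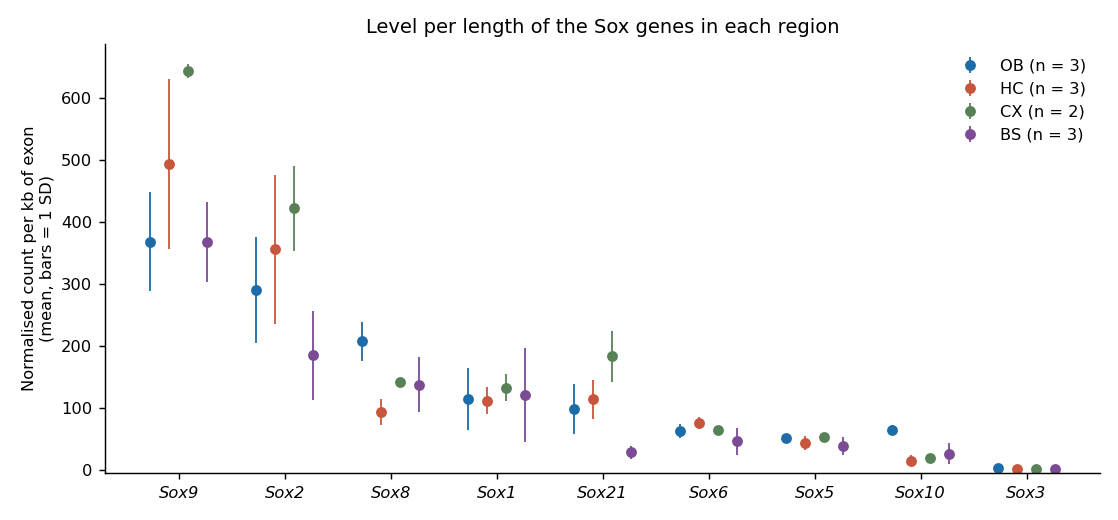
Normalised read count per kb of exon (vertical axis) of the 9 Sox genes (horizontal axis) in each region, as means with bars of 1 SD. Sox9 and Sox2 sit highest in each region, Sox21 drops to 28.4 per kb in the BS, and Sox3 lies at the bottom throughout.

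The upstream sequence of 3 genes whose level differed between regions is shown, since these are the windows in which sites for the partner factors described further on were looked for. The sequences are RefSeq entries on build GRCm38.p6 and give the 250 bases before an annotated start, 5′ to 3′ on the strand of the gene. Sox21 and Sox8 lie on the minus strand of chromosome 14 (chr14:118237031-118237280) and chromosome 17 (chr17:25570687-25570936), and Sox2 on the plus strand of chromosome 3 (chr3:34649745-34649994), where the RefSeq start lies upstream of the GENCODE one. Capitals mark a match to one of the motifs searched on both strands.
Sox21: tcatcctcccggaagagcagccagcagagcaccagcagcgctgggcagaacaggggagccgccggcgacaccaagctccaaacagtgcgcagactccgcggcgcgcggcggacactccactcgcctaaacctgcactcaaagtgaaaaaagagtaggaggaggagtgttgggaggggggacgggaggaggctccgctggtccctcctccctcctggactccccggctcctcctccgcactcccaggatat
Sox2: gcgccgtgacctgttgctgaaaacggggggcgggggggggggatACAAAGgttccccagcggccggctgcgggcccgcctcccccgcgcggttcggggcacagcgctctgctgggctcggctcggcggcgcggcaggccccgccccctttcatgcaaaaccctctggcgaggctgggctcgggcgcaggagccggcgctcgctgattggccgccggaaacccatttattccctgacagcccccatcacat
Sox8: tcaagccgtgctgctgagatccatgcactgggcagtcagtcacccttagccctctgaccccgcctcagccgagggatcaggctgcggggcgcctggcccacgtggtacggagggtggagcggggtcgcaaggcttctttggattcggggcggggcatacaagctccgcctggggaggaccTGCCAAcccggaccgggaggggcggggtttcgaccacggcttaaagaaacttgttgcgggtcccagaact

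The motifs were the Sox cores ACAAAG and ACAATG, the POU octamer ATGCAAAT and the NFI half-site TTGGCA, none of which contains another. The Sox2 window held ACAAAG, beginning 206 bases before the start, and the Sox8 window held TTGGCA on the other strand, 70 bases before it. The Sox21 window held none of the 4. Among the 32851 windows of this length in the mouse table, 16.5% held ACAAAG, 10.7% ACAATG, 1.6% ATGCAAAT and 12.3% TTGGCA, so that single matches of this kind are common. In all, 6 of the 9 genes had an entry, with 11 windows between them, 7 of which belonged to Sox5 and Sox6. Windows of Sox5 and Sox6 also held matches to ACAATG and TTGGCA, and some of Sox6 to ACAAAG, whereas the Sox1 window held none.

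The question put to these values was whether a Sox gene's level differed among astrocytes of the 4 regions. Over the 4 region means, 3 of the 8 genes tested passed an adjusted p of 0.05 (limma moderated F test on log2(value + 1), Benjamini-Hochberg over all genes), against 16.5% of all genes tested. These were Sox21 (adjusted p = 0.00027), Sox10 (0.0163) and Sox8 (0.0224). Sox2 (0.0623), Sox9 (0.079), Sox6 (0.189), Sox5 (0.419) and Sox1 (0.931) did not pass. The median distance between the highest and the lowest region mean was 1.00 on the log2 scale over the 8 genes and 0.84 over all genes tested.

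**Figure D2:**
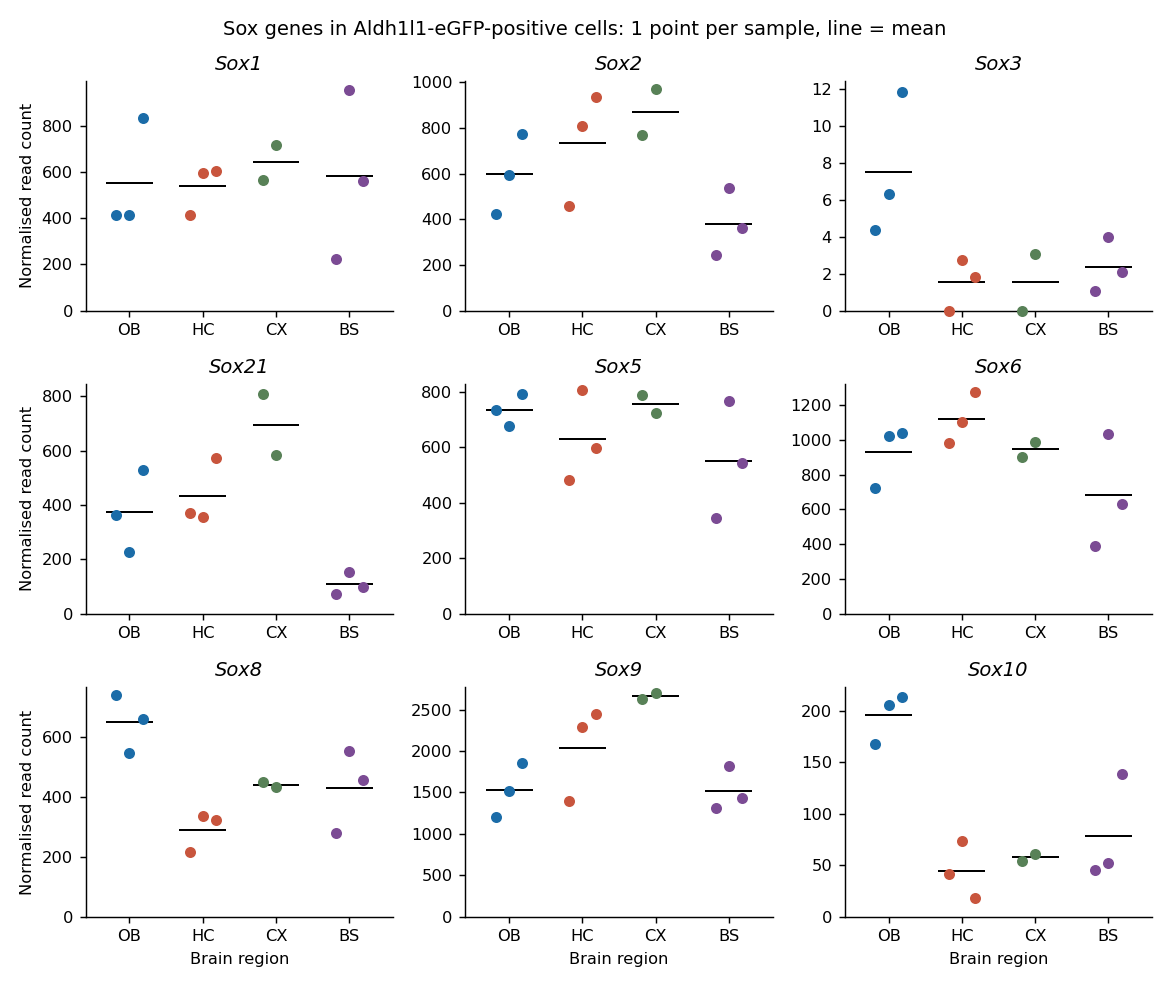
Normalised read count (vertical axis, linear from 0, a scale for each gene) of the 9 Sox genes in the OB, HC, CX and BS (horizontal axis), with 1 point per sample and a line at the mean. The BS samples of Sox21 lie below all others and the OB samples of Sox10 above all others, while the regions of Sox1 overlap.

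Sox21, the SoxB2 factor, had the smallest adjusted p of the 8 genes and was lower in the BS than in each other region. The gene is a single exon on chromosome 14 (118233232 to 118237030 on GRCm38, GENCODE). Its values were 72.5, 152 and 98.9 in the BS, against OB values of 363, 227 and 528, HC values of 372, 356 and 572 and CX values of 808 and 584. All 3 BS samples lay below the other 8, and both CX samples above the other 9. A gene whose BS samples all lay below the rest was found in 4.19% of genes tested, and one whose CX samples all lay above in 5.02%.

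Against the BS, Sox21 was higher by 2.73 ± 0.36 in the CX (log2 difference ± SE, adjusted p = 0.00018, limma), by 2.03 ± 0.32 in the HC (adjusted p = 0.0013) and by 1.76 ± 0.32 in the OB (adjusted p = 0.0015). The background was 10.9% of genes called between CX and BS, 4.63% between HC and BS and 15% between OB and BS. Set against the 8 other samples taken as 1 group, Sox21 in the BS was lower, with a log2 difference of -2.10 ± 0.33 (adjusted p = 0.00182, limma; 5.42% of genes called). Among OB, HC and CX themselves no difference in Sox21 passed the test: that between OB and CX was -0.96 ± 0.36 (adjusted p = 0.163, limma). Sox21 shares 713 of its 3799 exon bases (18.8%) with Gm4675 on the opposite strand, and since the sources used here do not state that strand was used in counting, reads from the pair cannot be told apart there.

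The BS samples also differed from the rest in other respects, whose part in the Sox values was not tested. The 9 choroid plexus markers summed to 51388 to 241633 (BS), 70690 to 143909 (HC), 1753 to 4901 (CX) and 204 to 326 (OB), with Folr1 and Slc4a5 at 0 in the OB. Over the regions 9 of the 9 passed the test, against 16.5% of all genes tested. BS replicate 1 had the highest choroid plexus sum and the lowest astrocyte marker sum of all samples, and it was the lowest BS sample for 8 of the 8 Sox genes tested. HC replicate 1 was the lowest of its region for 6 of 8. The sums of the mature oligodendrocyte markers are given further on. The part of choroid plexus cells and of oligodendrocytes in the Sox21 values was not tested. Without BS replicate 1 or any other single sample, Sox21 remained called in each of the 3 pairs with the BS, with adjusted p-values of at most 0.0117 (limma).

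Sox2 (chromosome 3, 34650405 to 34652461), the SoxB1 factor that maintains neural stem cells and stays on in astrocytes, had BS values of 244, 537 and 360. It reached 422, 592 and 775 in the OB, 456, 807 and 936 in the HC and 769 and 969 in the CX. The CX and BS ranges did not overlap, as in 38.2% of genes tested, whereas those of OB and HC overlapped each other and the BS. Sox2 was higher in the CX than in the BS by 1.25 ± 0.35 (log2 difference ± SE, adjusted p = 0.0299, limma; 10.9% of genes called). With 1 sample fewer the call was lost without CX replicate 1 (adjusted p = 0.112), CX replicate 2 (0.209), BS replicate 1 (0.103) or BS replicate 3 (0.0759). Scaling to the astrocyte markers, an alternative chosen after seeing the data, left a difference of 0.58 (adjusted p = 0.179, limma).

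Sox2 is a single-exon gene inside the span of Sox2ot, a long non-coding transcript read from the same strand, and the pair shares no exon bases in the GENCODE annotation. Sox2ot was highest in the BS, where Sox2 was lowest, while the means of both ran OB, HC, CX from low to high in the other regions. Its values were 310, 519 and 436 in the BS, 229 and 244 in the CX, 159, 291 and 123 in the HC and 152, 63.2 and 81.9 in the OB. All 3 BS samples lay above the other 8, an order whose share among all genes is not given here. Sox2ot differed over the 4 regions (adjusted p = 0.00298, limma; 16.5% of genes called), with a log2 difference of -2.15 ± 0.35 between OB and BS (adjusted p = 0.000568; 15% of genes called). Within each sample, the ratio of Sox2 to Sox2ot was 0.786 to 1.03 (BS) and at least 2.77 in each of the other 8 samples. This ratio does not depend on the scaling between samples, but 32.6% of all genes tested had a ratio to Sox2ot that was likewise lowest in the BS samples. The ratio of Sox21 to Sox2 was likewise lower in each BS sample, 0.275 to 0.297, than in each of the others, 0.383 to 1.05, which held for 0.814% of genes tested. The ratios were not tested.

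Sox1 (chromosome 8, 12395295 to 12400126), the other SoxB1 gene with more than trace counts, did not differ detectably between regions. Its values ran from 413 to 832 (OB), 415 to 606 (HC), 567 to 718 (CX) and 224 to 958 (BS), so that the BS alone spanned the range of the other regions. The 6 differences between regions were at most 0.37 ± 0.45 on the log2 scale, that of CX and BS (adjusted p = 0.688, limma). The ratio of Sox1 to Sox2 was 0.918 to 1.78 (BS) and 0.647 to 1.07 elsewhere, with an overlap.

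Sox3, the SoxB1 gene on chromosome X (60891366 to 60893430), was at the limit of detection. It had 48 reads in all 11 samples, 34 of them in the OB. The values were 4.34, 6.32 and 11.9 in the OB, against 0, 2.74 and 1.83 in the HC, 0 and 3.07 for the CX samples and 1.05, 4.01 and 2.10 in the BS. The OB samples lay above all others, although a floor of 3 reads corresponds to a value of up to 6.31 in the BS. The same order was found in 4.93% of the genes tested, which do not include Sox3. An exact permutation test over all 92400 assignments of samples to regions gave p = 0.121, so that a difference between regions was not detectable at this depth.

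Of the SoxE genes, Sox9 (chromosome 11, 112782224 to 112787760) had the highest level per length. Its values were 2632 and 2695 in the CX, 1394, 2293 and 2441 in the HC, 1199, 1515 and 1861 in the OB and 1311, 1823 and 1429 in the BS. Both CX samples lay above the other 9 samples, as in 5.02% of genes tested, while OB, HC and BS overlapped. The difference between CX and BS was 0.82 ± 0.25 on the log2 scale and just passed (adjusted p = 0.0498, limma; 10.9% of genes called). The call was lost in 8 of the 11 fits that left out 1 sample, with adjusted p-values of up to 0.223. It was also lost with edgeR (adjusted p = 0.0689), with TMM scaling (0.054), with a pseudocount of 0.25 (0.0543), without the filter (0.0743) and without the mean-variance trend (0.151). After scaling to the astrocyte markers the difference was 0.15 (adjusted p = 0.665, limma). The geometric mean of those 10 markers was higher in the CX, by a mean log2 factor of 0.34, and lower in the BS, by -0.33, but its members did not run alike: of the 10, only Slc1a3 was called between CX and BS, whereas Aqp4 and S100b had their highest mean in the BS and Gfap its lowest in the CX. Slc1a2 made up most of the summed astrocyte values given above. The difference between CX and OB was of the same size, with OB minus CX at -0.83 ± 0.25, and did not pass (adjusted p = 0.0795, limma).

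Sox10 (chromosome 15, 79154908 to 79165240) was the lowest of the 3 SoxE genes per length. Its values were highest in the OB, at 168, 206 and 213. It had 41.2, 74.0 and 18.7 in the HC, 54.0 and 61.3 for the CX samples and 45.2, 52.1 and 139 in the BS. The 3 OB samples lay above the other 8, which was true of 4.93% of genes tested. BS replicate 3 was the nearest, and the reads behind the 8 lower values numbered between 26 and 81 per sample.

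Sox10 was higher in the OB than in the HC by 2.30 ± 0.48 (log2 difference ± SE, adjusted p = 0.00676, limma; 7.11% of genes called), and this call was kept without any single sample (adjusted p at most 0.0365). It was higher than in the BS by 1.48 ± 0.48 (adjusted p = 0.0488), a call lost in 8 of the 11 fits that left out 1 sample, with adjusted p-values of up to 0.174, and with a replicate block (0.057). The difference from the CX, 1.74 ± 0.53, did not pass (adjusted p = 0.0804, limma). Against the 8 other samples pooled, Sox10 in the OB was higher by 1.86 ± 0.43 (adjusted p = 0.024, limma; 4.58% of genes called). The call over the 4 regions was lost with astrocyte-marker scaling (adjusted p = 0.053, limma), without OB replicate 2 (0.0757) or without OB replicate 3 (0.0771). The call against the pooled samples was lost without OB replicate 1 (adjusted p = 0.0828), 2 (0.126) or 3 (0.131).

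Sox8 (chromosome 17, 25565892 to 25570686) had its highest values in the OB as well, at 738, 544 and 660. It had 215, 334 and 321 in the HC, 447 and 432 for the CX samples and 279, 551 and 455 in the BS. The OB and HC ranges did not overlap, as in 25.7% of genes tested, and OB replicate 2 fell just below BS replicate 2. Sox8 was higher in the OB than in the HC by 1.17 ± 0.25 (log2 difference ± SE, adjusted p = 0.00752, limma; 7.11% of genes called), and the call was kept without any single sample. The pooled contrast for the OB, 0.82 ± 0.25, did not pass (adjusted p = 0.0852, limma). The test over the 4 regions was lost without OB replicate 1 (adjusted p = 0.0915), OB replicate 3 (0.076) or HC replicate 1 (0.0614). Sox8 shares 329 of its 3118 exon bases (10.6%) with 2810468N07Rik on the opposite strand.

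The ratios of the SoxE genes within a sample, which were not tested, were highest in the OB. The ratio of Sox8 to Sox9 was 0.355 to 0.616 (OB), 0.213 to 0.318 (BS), 0.160 to 0.170 (CX) and 0.132 to 0.154 (HC), with no overlap between any of the 4 regions, as in 0.526% of ratios of a tested gene to Sox9. The ratio of Sox10 to Sox9 was 0.115 to 0.140 (OB) and at most 0.0972 in the other 8 samples, an order found in 7.55% of such ratios.

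**Figure D3:**
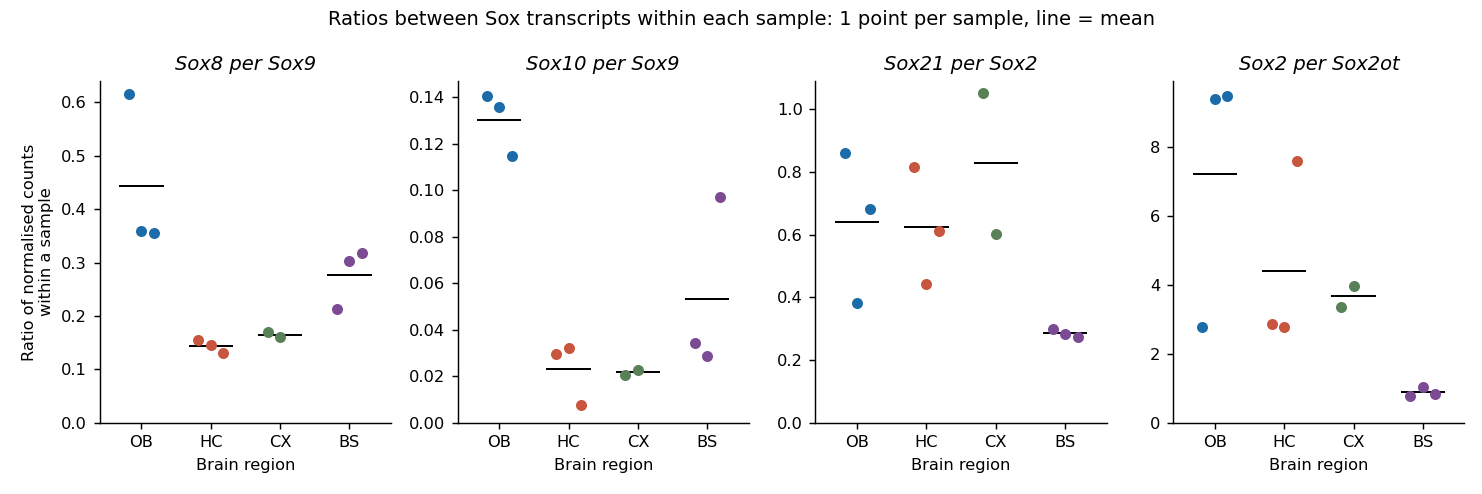
Ratio of normalised read counts within a sample (vertical axis, linear from 0) for Sox8 to Sox9, Sox10 to Sox9, Sox21 to Sox2 and Sox2 to Sox2ot in the 4 regions (horizontal axis), with 1 point per sample and a line at the mean. The OB points stand highest for the SoxE ratios, and the BS points lie lowest for Sox21 to Sox2 (0.275 to 0.297) and Sox2 to Sox2ot (0.786 to 1.03).

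Of the marker sums of other glia, that of olfactory ensheathing glia was highest in the OB, as Sox10 and Sox8 were, and those of the oligodendrocyte lineage and of Schwann cells were not. The 8 olfactory ensheathing glia markers summed to 14717 to 19214 (OB), and to 1176 to 1538 (HC), 1746 to 1783 (CX) and 624 to 1398 (BS). Of these, 7 of the 8 passed the test over the 4 regions, against 16.5% of all genes tested. Fabp7 made up most of the ensheathing sum, with a mean of 14360 in the OB and of 1001 in the HC. Foxd3, a defining transcription factor of that lineage, had values of 40.2, 40.3 and 63.6 in the OB, was listed at 0 in all HC and CX samples and reached at most 10.5 in the BS. The 13 mature oligodendrocyte markers ran in another order, with sums of 9847 to 16324 (OB), 18925 to 40711 (HC), 19704 to 20848 (CX) and 53422 to 91765 (BS). Of these, 9 of the 12 tested passed over the 4 regions, and the highest sum was that of BS replicate 3, the BS sample with the highest Sox10. The 12 oligodendrocyte precursor markers summed to 2269 to 2580 (OB), 2468 to 4178 (HC), 2439 to 2755 (CX) and 5370 to 8150 (BS), and 5 of them passed. Bcas1 had the largest share of the BS sum, with a mean of 4841, and was lower in the OB than in the HC, with a log2 difference of -1.90 ± 0.33 (adjusted p = 0.00182, limma). Other members ran the other way: Cacng4 and Neu4 were higher in the OB than in the HC, by 2.99 ± 0.53 and 3.39 ± 0.72 (log2 difference ± SE, adjusted p = 0.0021 and 0.00783, limma), and the median of the 12 was 0.70, against 0.00 over all genes tested. Matn4 was higher in the OB than in the BS by 3.20 ± 0.89 (adjusted p = 0.0237, limma). The 5 Schwann cell markers summed to 347 to 437 (OB), 272 to 407 (HC), 586 to 638 (CX) and 421 to 554 (BS), with Ncmap at 0 in the CX, and 1 of the 3 tested passed. Their part in the Sox10 and Sox8 values was not tested.

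**Figure D4:**
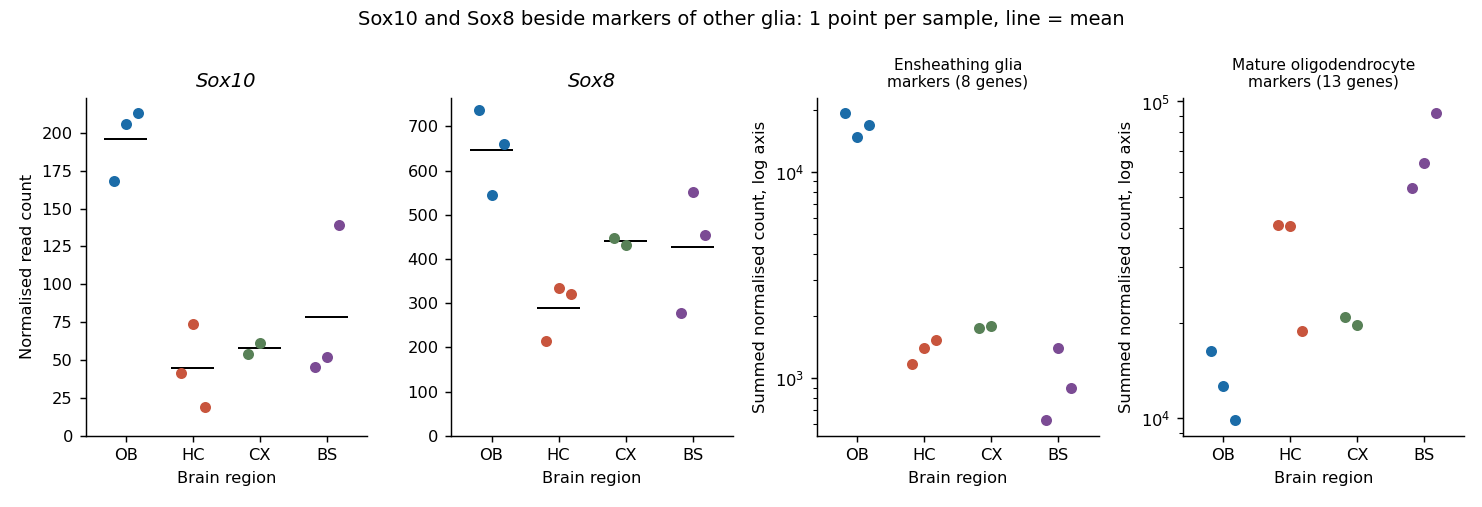
Normalised read counts of Sox10 and Sox8 (vertical axes, linear from 0, line at the mean) and summed normalised counts of 8 olfactory ensheathing glia markers and 13 mature oligodendrocyte markers (log axes) in the 4 regions (horizontal axis), with 1 point per sample. The OB samples are highest for Sox10 and for the ensheathing sum (14717 to 19214) and lowest for the oligodendrocyte sum (9847 to 16324). Fabp7 makes up most of the ensheathing sum.

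Neither SoxD gene passed over the 4 regions. Sox6 (chromosome 7, 115470872 to 116038796), which in oligodendrocyte precursors holds back differentiation together with Sox5, had values of 725, 1020 and 1039 in the OB, 980, 1103 and 1277 in the HC, 905 and 989 for the CX samples and 389, 1034 and 631 in the BS. Sox5 (chromosome 6, 143828425 to 144781977) had values of 735, 677 and 791 in the OB, 483, 804 and 598 in the HC, 788 and 722 for the CX samples and 345, 765 and 541 in the BS. For both genes the BS range overlapped that of every other region. The difference of Sox6 between HC and BS, 0.81 ± 0.27 on the log2 scale, did not pass (adjusted p = 0.125, limma). Without BS replicate 2, the BS sample with the highest Sox6, it was 1.17 (adjusted p = 0.00589). Sox5 shares 9.25% of its exon bases with the antisense gene Sox5os1.

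Between pairs of regions, the counts of the 8 genes called were 2 for OB and HC (7.11% of all genes tested), 2 for OB and BS (15%), 1 for HC and BS (4.63%) and 3 for CX and BS (10.9%). None was called between OB and CX, where 4.91% of all genes were, or between HC and CX, where 1.23% were (limma). At an unadjusted p under 0.05 those counts were 3 for OB and CX (16.3% of all genes) and 1 for HC and CX (12.4%). By edgeR, 0 were called in both (4.11% and 0.901% of all genes), and by DESeq2, 2 (Sox9 and Sox10) between OB and CX (7.07%) and 0 between HC and CX (3.16%). The median difference of the 8 genes between CX and BS was 0.55 on the log2 scale, against -0.03 over all genes tested, and between OB and BS it was 0.59, against 0.02.

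Against the other samples pooled, 1 gene was called for each of the OB and the BS and 0 for the HC or the CX, where 0% and 0.0144% of all genes were called. At an unadjusted p under 0.05, 2 of the 8 passed in the HC (5.69% of all genes) and 2 in the CX (9.89%). By edgeR, 0 were called in either region (HC 0% and CX 0.0144% of all genes), and by DESeq2 0 as well (HC 0.699% and CX 1%). With thresholds adapted from the study's (unadjusted p under 0.01, fold over 1.5 and a normalised count over 5 in 2 replicates of a region) on the same fits, Sox10 and Sox8 passed in the OB (8.04% of genes), Sox8 in the HC (1.28%), Sox21 and Sox2 in the BS (9.03%) and no Sox gene in the CX (2.77%). By these thresholds Sox9 and Sox10 also differed between OB and CX (8.07%), and Sox2, Sox6 and Sox21 between HC and BS (7.6%). The study set its floor in RPM, reads scaled to a common library total. With a floor of 5 RPM, an alternative chosen after seeing the data, the same Sox genes passed in each of these comparisons, where the shares of all genes were 7.36% (OB), 1.15% (HC), 8.3% (BS), 2.43% (CX), 7.46% (OB and CX) and 7.02% (HC and BS).

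**Figure D5:**
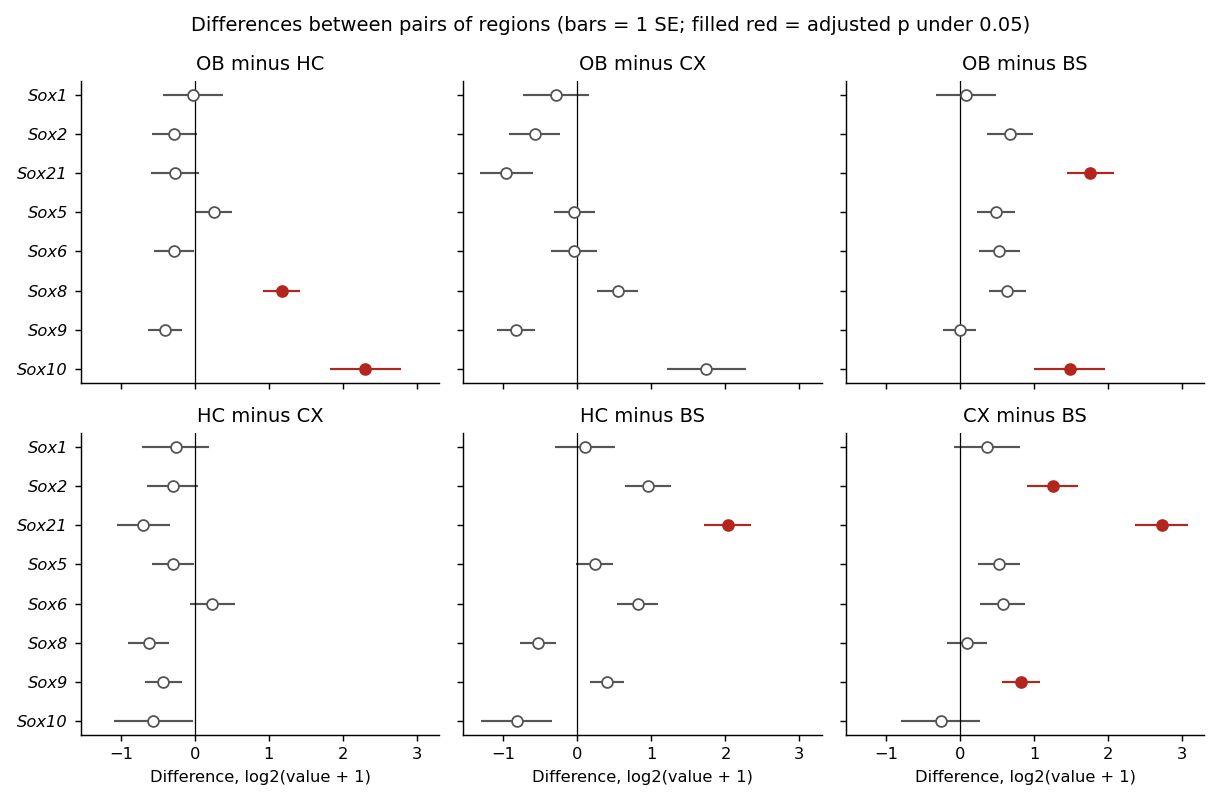
Differences between region means on the log2(value + 1) scale (horizontal axis) of the 8 Sox genes tested (vertical axis) for the 6 pairs of regions, with bars of 1 SE and filled red points for an adjusted p under 0.05 (limma). Sox21 is displaced to the right in each pair with the BS, Sox10 and Sox8 in OB minus HC, and HC minus CX holds no filled point.

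Of the 10 other Sox genes considered, 7 were tested and 1 was called over the 4 regions, where 16.5% of all genes tested were. This was Sox11, a SoxC factor of immature neurons (adjusted p = 0.00895, limma). Its values were 171, 321 and 198 in the OB, 91.2, 112 and 128 in the HC, 129 and 281 for the CX samples and 27.3, 96.2 and 50.5 in the BS. Sox11 was higher in the OB than in the BS by 2.09 ± 0.42 (log2 difference ± SE, adjusted p = 0.00296, limma; 15% of genes called). The 10 neuroblast and neural progenitor markers summed to 736 to 886 (OB), 115 to 287 (HC), 210 to 287 (CX) and 234 to 387 (BS), with Dlx1 and Dlx2 at 0 in the BS. Of these, 4 of the 9 tested passed, against 16.5% of all genes tested. Dcx and Sp8 made up most of the OB sum, with OB means of 349 and 264. Other members ran the other way: Cd24a, Nes, Mki67 and Top2a had higher means in the BS than in the OB. Between OB and BS the median log2 difference of the 9 was -0.01, against 0.02 over all genes tested. The part of the cells behind these markers in the Sox11 values was not tested. Sox4, Sox7, Sox12, Sox13, Sox17 and Sox18 did not pass, with adjusted p-values between 0.198 and 0.98. Sox14 had no read, Sox15 had 2 and Sox30 had 8.

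Among 18 transcription factors known to act with Sox proteins in glia, 8 passed over the 4 regions (16.5% of all genes tested). Of the 18, 6 differed between OB and BS (15% of all genes), 6 between HC and BS (4.63%) and 7 between CX and BS (10.9%). Pax6, Pou3f2, Pou3f3 and Hes5, which act with or beside Sox2 in neural progenitors, were lower in the BS than in the HC. Pax6, which binds DNA together with Sox2, had values of 62.0, 112 and 63.1 in the BS against 151 to 375 elsewhere, and HC minus BS was 1.26 ± 0.27 on the log2 scale (adjusted p = 0.012, limma). The POU factors Pou3f2 and Pou3f3 (Brn2 and Brn1) were higher in the HC than in the BS by 0.94 ± 0.23 (adjusted p = 0.0322) and 1.44 ± 0.31 (adjusted p = 0.0137). Hes5, a Notch target, was higher by 3.04 ± 0.74 (adjusted p = 0.0277).

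The LIM factor Lhx2 was all but absent from the BS, with values of 2.10, 8.01 and 2.10 there and of 1060 to 2222 elsewhere. In the other direction, Olig1, a factor of the oligodendrocyte lineage, was lower in the HC than in the BS, with a log2 difference of -0.84 ± 0.22 (adjusted p = 0.0461, limma). The NFI genes Nfia and Nfib, with which Sox9 cooperates at the onset of gliogenesis, did not pass over the 4 regions (adjusted p = 0.219 and 0.129, limma).

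Of 3 genes that Sox9 activates together with Nfia, 1 was called over the 4 regions, against 16.5% of all genes tested. Apcdd1 had values of 390, 426 and 374 in the OB against 72.3 to 181 in the other 8 samples, and OB minus HC was 1.59 ± 0.33 on the log2 scale (adjusted p = 0.00684, limma). The adjusted p was 0.0923 for Mmd2 and 0.468 for Zcchc24. Sox9 itself did not differ detectably between OB and HC, where its log2 difference was -0.40 ± 0.23 (adjusted p = 0.387, limma).

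Of 9 genes activated by Sox10, 8 were tested and 6 were called over the 4 regions, against 16.5% of all genes tested. These 6 did not share a direction. Erbb3, a neuregulin receptor, had values of 99.9, 90.0 and 124 in the OB against 0.734 to 42.9 in the other 8 samples, and was higher in the OB than in the BS by 3.37 ± 0.97 (log2 difference ± SE, adjusted p = 0.0288, limma). The myelin genes Mbp, Mag and Cnp and the myelin regulator Myrf were lower in the OB than in the BS. Mbp, the myelin basic protein gene, had values of 8301, 6602 and 3846 in the OB and 37477, 45114 and 65569 in the BS, with a log2 difference of -3.01 ± 0.35 (adjusted p = 3.57e-05, limma).

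The genes whose values ran most like a Sox gene's were sought by Pearson's correlation of log2(value + 1) over the 11 samples, which share their scaling and their regions. For Sox21 these were Fam171b (r = 0.977), Fgd6 (0.977) and Fam107a (0.973). Sox2 was closest to Cadm2 (r = 0.972), Myo6 (0.961) and Syt11 (0.956), and Sox9 to Cry2 (0.957), Igsf21 (0.951) and Nudt3 (0.950). Sox8 was closest to Cxxc4 (r = 0.961), Enho (0.940) and Metrn (0.938). Sox10 was closest to Mir124a-1hg (r = 0.942), Prkab1 (0.940) and Evi5l (0.933). For Sox1 they were Magi2 (r = 0.945), Pcdh9 (0.924) and Tmem229a (0.875). Sox5 was closest to 8430419L09Rik (r = 0.987), Ywhae (0.959) and Phlpp1 (0.958), and Sox6 to Slc27a4 (0.933), Tmem47 (0.931) and Tmx3 (0.926). None of these genes was another Sox gene.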

How the data were processed

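Per the labels and the study's methods, total RNA (5 ng) of sorted cells was made into rRNA-depleted libraries, reads were mapped with STAR 2.5.0a to mm10 and counted on UCSC transcripts, and the deposited unit is a signal: gene read counts divided by the authors' DESeq2 1.20.0 size factor of each sample. All non-zero values (100%) were whole multiples of 1 step per sample, within 0.01 read, so reads were recovered (median 5552215 per sample). Replicates are the samples of 1 labelled region. limma 3.58.1 (R 4.3.3) was fitted to log2(value + 1) of 13875 genes kept by filterByExpr of edgeR 4.0.16, with a mean-variance trend, 1 mean per region and Benjamini-Hochberg adjustment (two-sided), and tested on simulated data. Python 3.11.15 with scipy 1.17.1 served the exact test of Sox3, gene lists and plots. Alternatives were edgeR, DESeq2 1.42.0, TMM, upper-quartile and astrocyte-marker scaling, pseudocounts of 0.25 and 5, no filter, no trend, the study's thresholds (unadjusted p under 0.01, fold over 1.5, value over 5 in 2 replicates, here in normalised counts or, chosen after seeing the data, in RPM), the mean of the other region means as reference, a block for the replicate number, and fits without each sample in turn. Genes named are the 9, the listed relatives, neighbours, partners and targets, defining or abundant markers, and the 3 genes most correlated with each. Members and lists were chosen with earlier results of these data known. Exon lengths and positions are from GENCODE on GRCm38, which is not the gene model counted. Promoter entries were matched by symbol for Sox1, Sox2, Sox5, Sox6, Sox8 and Sox21, with Sox3, Sox9 and Sox10 not matched. Read floors (3 reads) cover counting error only. Values of some genes in the target and marker lists are not reported here, although the lists' counts and sums include them.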

Additional observations from a re-analysis of the deposited data

How the results depend on the processing

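Sox21 stayed called over the 4 regions, in each pair with the BS and in the pooled BS contrast under every alternative run, and Sox10 between OB and HC likewise. Over the 4 regions, the 3 Sox genes called became 5 with DESeq2 (Sox2 and Sox9 added), 5 with a replicate block, 2 with astrocyte-marker scaling (Sox10 lost, adjusted p = 0.053), 1 without the mean-variance trend, and 1 to 6 when a sample was left out, the extremes being without OB replicate 3 and without BS replicate 2. Between OB and HC the 2 calls became 1 without the trend (Sox8 at an adjusted p of 0.0554). Between OB and CX the 0 calls became 2 with DESeq2, 2 with the study's thresholds and 1 with a replicate block, and 0 to 1 with a sample left out (1 without HC replicate 1 or HC replicate 3). Between OB and BS the 2 became 1, Sox21 alone, with edgeR, with astrocyte-marker scaling, with a pseudocount of 0.25, without the filter and without the trend, and 1 to 5 with a sample left out (5 without BS replicate 2). With a replicate block the count stayed at 2, but Sox10 was lost (adjusted p = 0.057) and Sox2 gained (0.0374). Between HC and BS the 1 became 3 with the study's thresholds and 2 with a replicate block, and 1 to 3 with a sample left out (3 without BS replicate 2, 2 without HC replicate 1). Between CX and BS the 3 became 2, with Sox9 lost, with edgeR, TMM scaling, a pseudocount of 0.25 or no filter, 1 with astrocyte-marker scaling or without the trend, and 1 to 5 with a sample left out (1 without either CX sample, BS replicate 1 or BS replicate 3, 5 without BS replicate 2). A region left with 1 CX sample was assumed to vary like the others. Apart from the shares given above for edgeR, DESeq2 and the study's thresholds, the share of all genes called under an alternative is not given. A changed count therefore cannot be read as particular to the Sox genes.

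Against the pooled others, the 1 call in the OB became 2 with DESeq2, with the study's thresholds and against the mean of the other region means, 0 with astrocyte-marker scaling or without the trend, and 0 to 2 with a sample left out (0 without any OB sample). In the BS the 1 became 2 with DESeq2, a replicate block, the study's thresholds and the mean of the other region means, and 1 to 3 with a sample left out. In the HC the 0 became 1 with the study's thresholds, and in the CX the 0 became 1 (Sox21) against the mean of the other region means. Sox11, the 1 call among the other Sox genes, became 0 with astrocyte-marker scaling or without the trend. No difference turned its direction. With the floor of the study's thresholds set at 5 RPM, counts were those of the floor of 5 normalised counts. The causes were not tested. Same-numbered samples of different regions showed no clear common deviation (r from -0.16 to 0.25, over 0.1 in 3 of 15 pairs). However, 9 of 11 samples had a higher mean r with their own number than with others. Deviations were taken within regions of 2 or 3 samples, so these r values depend on each other and cannot exclude a pairing. The numbers were not taken to pair samples. Sox3 gave an exact permutation p of 0.183 with a pseudocount of 0.25. The depth limits Sox3, and 2 CX samples limit every contrast with that region.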
